A study of Mus musculus with 2 samples.

Results

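The genes described here are 10 members of the Bcl-2 family, which sets whether a cell lives or undergoes apoptosis: Mcl1, Bcl2, Bcl2l1, Bcl2l11, Bax, Bak1, Bad, Bid, Bbc3 and Pmaip1. All probe sets that the platform annotation assigns to a member were taken. They numbered 29, for 9 of the 10 genes, out of 18193 genes with a probe set on the arrays. Bax had no probe set assigned in the annotation used and is not analysed here. The samples were bone marrow neutrophils of mice of a mixed C57BL/6 and 129/J background, sorted as CD11b+ Ly6G+ cells low in Ly6C. One group was labelled Jdp2 KO and the other Jdp2 WT, and each was measured on 1 Affymetrix array. The deleted part of Jdp2, the age of the mice and the number of mice behind an array are not stated in the labels. With 1 array per genotype there are no replicates, so no spread between mice can be given and no difference has a p-value. Values are log2 signals, and a difference is the Jdp2 KO array minus the Jdp2 WT array.

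Apoptosis through mitochondria is governed by 3 kinds of Bcl-2 protein. Anti-apoptotic proteins such as Mcl-1, Bcl-2 and Bcl-xL hold the effectors Bax and Bak in check, and the effectors, once active, perforate the outer mitochondrial membrane and release cytochrome c. BH3-only proteins, among them Bim, Bad, Bid, Puma and Noxa, sense stress or loss of growth factors and either block the anti-apoptotic proteins or activate the effectors. Neutrophils are short-lived cells that depend on Mcl-1, a protein with rapid turnover, and mature ones contain little Bcl-2. Jdp2 is a leucine-zipper protein that pairs with Jun and ATF proteins at TRE and CRE sites in DNA and is known mainly as a repressor.

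The stronger Jdp2 probe set (1450350_a_at) read 12.38 on the KO array and 11.997 on the WT array, and the weaker one (1424972_at) read 5.40 and 5.24 on the same arrays. The targeted gene was thus not lower on the array labelled KO. Where these probes lie relative to the deletion is not given, so the genotype labels are unchecked, and every direction refers to the arrays as labelled. Neutrophil identity was checked with 10 marker genes that had a probe set, all of which lay within 2-fold. Their median level was 14.05 on the KO array and 14.13 on the WT array. The marker Ly6g had no probe set named here. Of 8 promyelocyte genes, 6 were at least 2-fold higher on the KO array, led by Mpo (11.02 on the KO array, 5.93 on the WT array). Ctsg and Prtn3 had WT values under the array median, and with these raised to it they were 6.64-fold and 3.06-fold higher. Ctsc, also among the 6, differed by 1.05 at its brightest probe set, while its 3 probe sets ran from -0.61 to 1.05. Of 14 monocyte and macrophage genes that passed the level filter, 9 were at least 2-fold higher on it, with a list median difference of 1.16. Among those 9, F13a1, Ms4a6c, C1qa and C1qc had WT values under the array median. With these raised to that median they were 3.25-fold, 1.76-fold, 1.71-fold and 1.78-fold higher. Of 6 platelet genes, 3 were at least 2-fold higher. The share over all genes that passed was 3.06%. The log2 of the summed signal of the promyelocyte list was 14.47 on the KO array and 13.94 on the WT array, and that of the monocyte and macrophage list was 14.93 and 14.79. No marker can read 0 on this scale. The part of these cells in the values below was not tested. In a bulk sample, fewer cells of a type and less RNA per cell cannot be told apart.

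Promoters show how the members stand to sites that Jdp2 and FoxO factors are known to bind. The windows, from RefSeq on GRCm38.p6, run from 250 bases before to 50 after each annotated start, and 9 of the 10 members, Bax among them, matched, with 15 windows in all. Pmaip1 was not among them. The TRE letters TGANTCA and the CRE letters TGACGTCA, both searched on both strands, were in 0 of the 15, against 7.81% and 1.79% of all 32851 windows. The shorter core of the CRE, TGACG, which every full CRE also contains, was in 3 of the 15 and in 20.8% of all windows. The FoxO letters GTAAACA were in 2 of the 15 and in 3.65% of all windows. The letters are a description of these windows and no evidence of binding or of its absence. The windows of Mcl1, Bcl2 and Bbc3 are shown because they hold TGACG on either strand, and that of Bcl2l11 because it holds GTAAACA, which is also in another Bbc3 window not shown. Capitals mark those letters, which begin 16 bases after the start for Mcl1 and 107, 55 and 227 bases before it for Bcl2, Bbc3 and Bcl2l11.
Mcl1 (chr3:95658471-95658770, plus strand): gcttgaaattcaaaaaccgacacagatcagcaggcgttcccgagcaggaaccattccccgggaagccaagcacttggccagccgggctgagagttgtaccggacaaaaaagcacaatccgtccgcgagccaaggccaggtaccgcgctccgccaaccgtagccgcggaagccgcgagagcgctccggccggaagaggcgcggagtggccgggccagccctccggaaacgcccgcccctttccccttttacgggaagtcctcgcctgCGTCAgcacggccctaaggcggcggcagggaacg
Bcl2 (chr1:106714241-106714540, minus strand): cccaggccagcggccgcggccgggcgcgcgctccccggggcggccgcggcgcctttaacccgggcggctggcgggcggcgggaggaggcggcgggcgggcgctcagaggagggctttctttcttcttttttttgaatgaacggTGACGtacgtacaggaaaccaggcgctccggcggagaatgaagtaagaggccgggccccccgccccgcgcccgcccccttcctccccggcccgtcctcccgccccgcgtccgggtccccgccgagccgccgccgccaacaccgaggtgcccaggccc
Bbc3 (chr7:16309333-16309632, plus strand): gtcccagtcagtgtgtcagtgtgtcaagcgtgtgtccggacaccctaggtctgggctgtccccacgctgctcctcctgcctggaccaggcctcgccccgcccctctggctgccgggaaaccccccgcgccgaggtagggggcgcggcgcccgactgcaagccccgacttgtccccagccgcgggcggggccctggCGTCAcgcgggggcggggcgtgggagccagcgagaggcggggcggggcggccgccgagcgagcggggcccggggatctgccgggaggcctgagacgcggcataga
Bcl2l11 (chr2:128125788-128126087, plus strand): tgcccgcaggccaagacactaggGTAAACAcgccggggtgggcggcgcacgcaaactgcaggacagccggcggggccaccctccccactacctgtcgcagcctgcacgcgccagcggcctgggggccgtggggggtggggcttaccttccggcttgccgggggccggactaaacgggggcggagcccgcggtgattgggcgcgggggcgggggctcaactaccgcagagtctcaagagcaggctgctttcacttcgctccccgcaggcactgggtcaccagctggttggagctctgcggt

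Most members differed little between the arrays. Taking for each gene its probe set with the highest mean, 7 of the 9 members lay within 2-fold. Bcl2 was 2.28-fold higher and Bad 2.03-fold lower on the KO array. Over all 11168 genes whose higher value reached the array median (the level filter), 3.06% were at least 2-fold higher and 2.33% at least 2-fold lower. The members' median difference was 0.15, against -0.04 over all genes that passed. It was -0.26 when all probe sets of a gene were averaged, against -0.06 over all genes treated that way. Bcl2 failed the filter when averaged and is not part of the -0.26. The sign of the median thus depends on that choice, which also changes the set of genes. All 9 members passed the filter with at least 1 probe set, and Bcl2 passed only through its value on the KO array. Of the 29 probe sets, 22 passed, and 6 carry the maker's mark for shared targets, meaning that they may also bind transcripts of other genes.

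**Figure D1:**
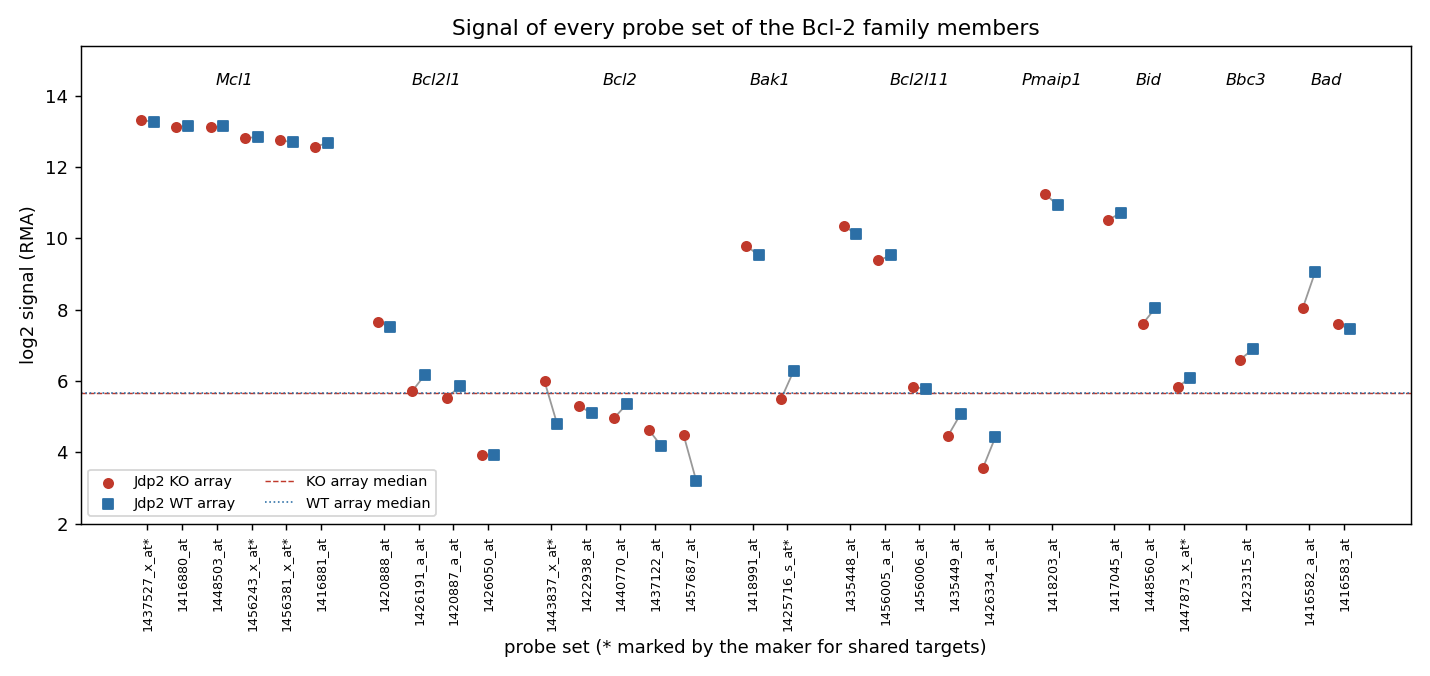
Log2 RMA signal (vertical axis) of each of the 29 probe sets on the Jdp2 KO array (circles, left) and the Jdp2 WT array (squares, right), grouped by gene, with the array medians as lines. The 6 Mcl1 probe sets lie between 12.57 and 13.32 on the KO array with both arrays almost level, while 4 of the 5 Bcl2 probe sets lie below the median of both arrays.

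Among the anti-apoptotic genes, Mcl1 was nearly the same on both arrays at every probe set. Its probe set 1437527_x_at read 13.32 on the KO array and 13.27 on the WT array. Probe set 1416880_at read 13.13 on the KO array and 13.16 on the WT array, and 1448503_at read 13.13 on the KO array and 13.14 on the WT array. The 6 differences ran from -0.10 to 0.06, with 2 above 0 and 4 below, and their SD over probe sets was 0.06. For comparison, the pooled SD between passing probe sets of the same gene was 0.36 over 4867 genes, a technical spread that says nothing of spread between mice. Mcl1 signals lay at or above 98.6% of all probe sets on both arrays, and among probe sets with a mean of 12 or more the SD of all differences was 0.18. Differences of such bright probe sets can be compressed, which was not tested. Of the 6 probe sets, 3 are marked for shared targets, and the sign of the Mcl1 difference depends on which probe set is taken (0.04 with 1437527_x_at, -0.03 without the marked ones).

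Bcl2l1, which encodes Bcl-xL, had no common direction among its probe sets. The one with the highest mean, 1420888_at, read 7.67 on the KO array and 7.52 on the WT array. Probe set 1426191_a_at read 5.72 on the KO array and 6.17 on the WT array, and 1420887_a_at read 5.52 on the KO array and 5.86 on the WT array. These other 2 recognise several transcripts of the gene, by the maker's naming, and differed by -0.45 and -0.33. The weakest, 1426050_at, read 3.93 on both arrays.

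Bcl2 was the member with the largest difference, and it was weak. Probe set 1443837_x_at read 5.99 on the KO array and 4.80 on the WT array, a difference of 1.19. The WT value lies under the array median of 5.65, and setting it to that median leaves 1.26-fold. This probe set is marked for shared targets, and it is the only 1 of the 5 that passed the level filter. The others read 5.30 and 5.09 (1422938_at), 4.96 and 5.34 (1440770_at), 4.63 and 4.17 (1437122_at) and 4.48 and 3.21 (1457687_at) on the KO and the WT array. Their differences were 0.20, -0.38, 0.45 and 1.27, so 4 of the 5 Bcl2 probe sets were higher on the KO array and 1 was lower, all of them at signals where background weighs on the value.

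The remaining anti-apoptotic relatives gave few further values. Bcl2l2, encoding Bcl-w, differed by 0.17 at its strongest probe set, with 4 probe sets from -0.26 to 0.17. Bcl2l10 read 4.06 on both arrays, below the level filter. The Bcl2a1 copies are listed only on probe sets shared by several of the copies and were not named. Of the 4 anti-apoptotic genes that passed, 1 was at least 2-fold higher and 0 were lower, and their median difference was 0.16. It was -0.04 with all probe sets averaged, a setting in which Bcl2 did not pass.

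**Figure D2:**
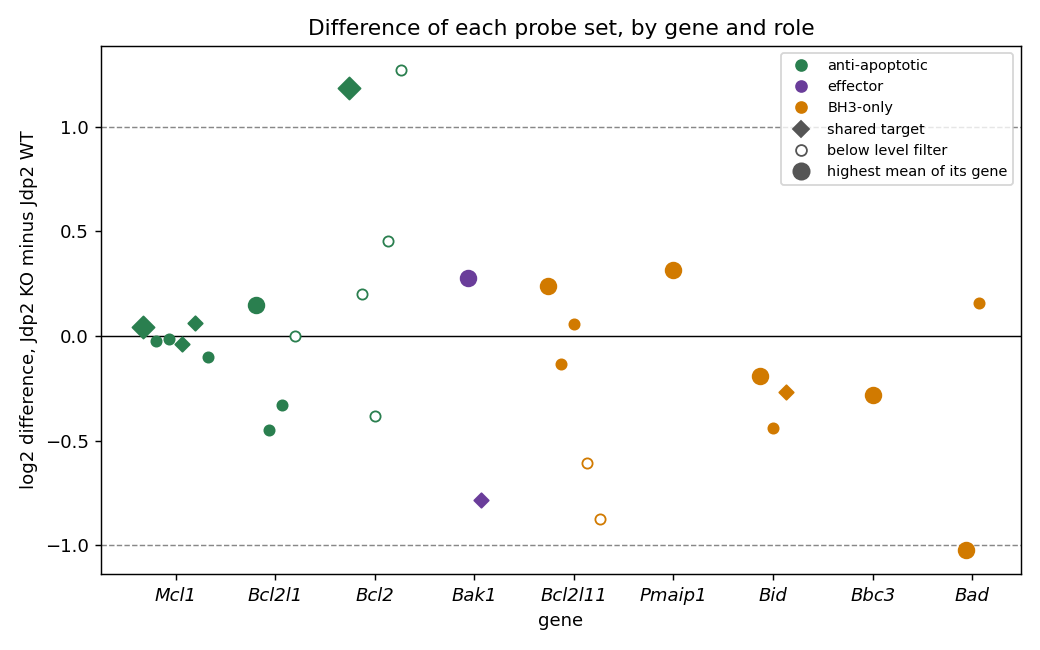
Log2 difference (Jdp2 KO minus Jdp2 WT, vertical axis) of each probe set by gene, coloured by role, with the probe set of highest mean drawn larger, diamonds for shared targets and open symbols below the level filter. Dashed lines mark 2-fold. Only probe sets of Bcl2 and Bad lie outside them, and other probe sets of both genes lie inside.

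Bak1 was the effector with values. It encodes Bak, which sits in the outer mitochondrial membrane. Its stronger probe set 1418991_at read 9.80 on the KO array and 9.52 on the WT array, a difference of 0.28. The weaker probe set 1425716_s_at, marked for shared targets, read 5.49 on the KO array and 6.28 on the WT array, a difference of -0.79. The 2 probe sets of Bak1 therefore pointed opposite ways. Bok, a relative of Bak, read 6.07 on the KO array and 5.57 on the WT array. Bcl2l13 was lower at both of its probe sets, by -0.57 and -0.72. Its stronger probe set read 7.28 on the KO array and 7.85 on the WT array. Bcl2l14 lay just inside the 2-fold rule at 0.99 (6.30 on the KO array, 5.31 on the WT array), while its other probe set, below the filter, differed by -0.33. The WT value of the stronger Bcl2l14 probe set lies under the array median, and raising it to that median leaves 1.57-fold. Bcl2l12 differed by 0.07 at its brightest probe set and by 0.54 at its other one, which also passed. Bcl2l15 differed by -0.34. Of all genes that passed, 44.8% lay above 0. Of the 6 effectors and related genes that passed, 0 reached 2-fold and 4 lay above 0. Their median of 0.18 turned negative when only genes with both values above the array median were kept (-0.14) and when all probe sets were averaged (-0.25). Bcl2l14 did not pass when averaged.

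The BH3-only genes lay on both sides of 0. Bad encodes a protein that is held inactive by phosphorylation when survival factors are present. Its probe set 1416582_a_at read 8.04 on the KO array and 9.07 on the WT array, a difference of -1.02, just past the 2-fold rule. Its other probe set, 1416583_at, read 7.61 on the KO array and 7.45 on the WT array, a difference of 0.16. Both probe sets passed the filter and neither is marked for shared targets, so only the stronger of the 2 Bad probe sets gave the lower value. The mean over both was -0.43.

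Bcl2l11 encodes Bim, a direct activator of the effectors that rises in many blood cells when cytokines are withdrawn. Its brightest probe set 1435448_at read 10.36 on the KO array and 10.12 on the WT array. Probe set 1456005_a_at read 9.39 on the KO array and 9.52 on the WT array. The 3 passing probe sets ran from -0.14 to 0.24, around 0. The 2 that failed the filter, 1435449_at and 1426334_a_at, differed by -0.61 and -0.87 at values of 5.07 or less on either array.

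Bid, whose product links death receptors to mitochondria once cut by caspase-8, was the only 1 of the 7 members with several probe sets whose probe sets all lay on the same side of 0. Its probe set 1417045_at read 10.52 on the KO array and 10.71 on the WT array, and 1448560_at read 7.61 on the KO array and 8.04 on the WT array. The third, 1447873_x_at, marked for shared targets, read 5.82 on the KO array and 6.09 on the WT array. The 3 differences of -0.19, -0.44 and -0.27 were small. Over all 9010 genes with several probe sets, 43.6% had them all on the same side.

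Bbc3 and Pmaip1, which encode Puma and Noxa and are both known targets of p53, differed in opposite directions. Bbc3 (1423315_at) read 6.60 on the KO array and 6.88 on the WT array, a difference of -0.28. Pmaip1 (1418203_at), whose product binds Mcl-1, read 11.24 on the KO array and 10.92 on the WT array, a difference of 0.32. Each rests on 1 probe set. Each difference is smaller than the pooled SD of 0.36 between probe sets of a gene, which does not measure spread between the arrays. Among all probe sets with a mean of 9 or more, where Pmaip1 lies, the SD of the differences was 0.29. Among other BH3-only genes, Bik was lower at all 3 of its probe sets, by -0.66 to -0.82, at weak signal. Its strongest probe set read 5.10 on the KO array and 5.86 on the WT array, which came to 1.15-fold with the KO value raised to the median. Bmf differed by 0.06, Hrk by 0.07 and Bnip3 by -0.06. Of the 9 BH3-only genes with values, 0 were at least 2-fold higher and 1 was lower, with a median of -0.06.

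By probe set rather than by gene, 2 of the 29 were at least 2-fold higher (both of Bcl2, 1 of them below the level filter) and 1 was at least 2-fold lower (Bad). Over all 45037 probe sets other than controls, 2.50% were at least 2-fold higher and 1.92% lower. The median over the 29 was -0.03, against -0.02 over all. Brighter probe sets varied less. The 11 member probe sets with a mean of 9 or more, which belong to Mcl1, Bcl2l11, Bak1, Bid and Pmaip1, differed by at most 0.32 in either direction, and the SD of all 7832 probe sets at that level was 0.29. The 11 passing ones with a mean under 9 held both the Bcl2 and the Bad probe set past 2-fold, at a level where 7.91% of all probe sets were past 2-fold in either direction.

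**Figure D3:**
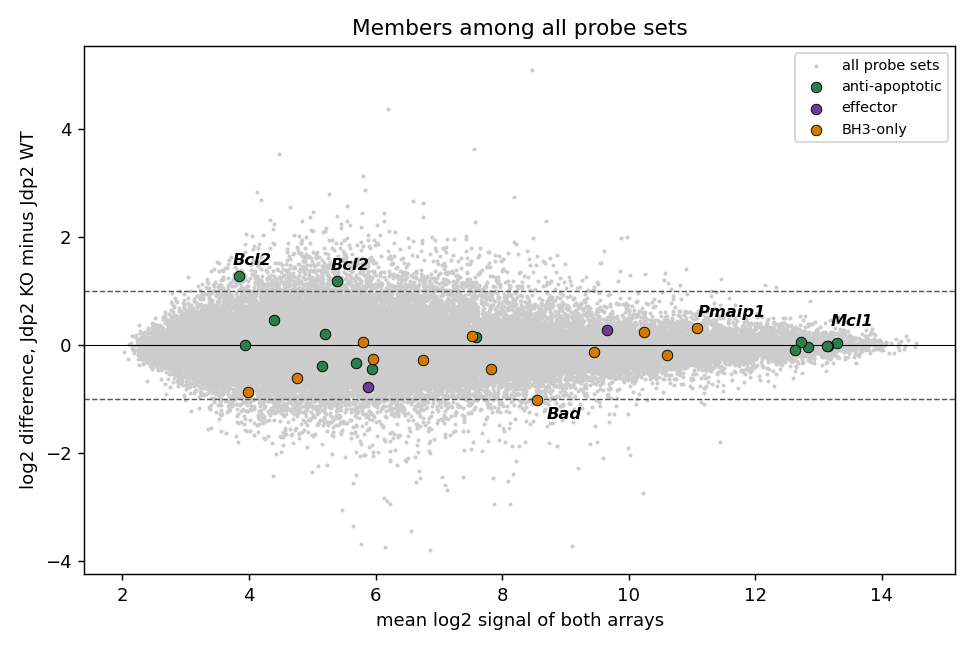
Log2 difference (Jdp2 KO minus Jdp2 WT, vertical axis) against the mean log2 signal of both arrays (horizontal axis) for all 45037 probe sets (grey) and the 29 of the members, coloured by role. Dashed lines mark 2-fold. Member probe sets with a mean of 9 or more stay within 0.32 of 0, and the 3 past 2-fold lie at lower means.

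The lists around the family hold few genes each. Since 3.06% of all genes that passed were at least 2-fold higher and 2.33% at least 2-fold lower, a count of 0 past 2-fold in such a list is near the background and is not a result about its genes. Of 7 genes of the apoptosome and executioner list that passed, 0 reached 2-fold, and their median was 0.00. Casp6, an executioner caspase, differed by -0.63 at weak signal, which came to 1.08-fold with the KO value raised to the median. Its other probe set differed by 0.13. Aifm1, encoding a mitochondrial flavoprotein released in cell death, differed by 0.38, Cycs, encoding cytochrome c, by -0.37, and Casp9, the initiator caspase of the apoptosome, by 0.10. The 3 probe sets of Casp9 ran from -0.45 to 0.10. Of 8 inhibitor-of-apoptosis genes, 0 reached 2-fold and the median was 0.08, with Naip6 at -0.58, Birc3 at 0.42, Birc6 at 0.36 and Birc2 at 0.17. The Naip genes are close copies of each other, so signal may be shared between them. Birc3, encoding cIAP2, read 11.50 on the KO array and 11.08 on the WT array, and its 2 probe sets were both higher.

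Death receptor genes had a median of -0.12 over the 7 that passed, and 5 of them lay below 0. Over all genes that passed, the median was -0.04 and 44.8% lay above 0. Fas, the receptor for Fas ligand, read 10.99 on the KO array and 11.42 on the WT array. Cflar, encoding the caspase-8 inhibitor cFLIP, read 11.35 on the KO array and 11.66 on the WT array, and its 5 probe sets ran from -0.30 to 0.00. Fadd differed by -0.15 and Tnfrsf1a by -0.12. None of the 7 reached 2-fold.

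Genes that control the turnover of Mcl-1 had a median of -0.02 over the 5 that passed, with 0 past 2-fold. Fbxw7 and Btrc, which encode substrate receptors of ubiquitin ligases, differed by 0.24 and -0.49. Usp9x, encoding a deubiquitinase of Mcl-1, differed by 0.11 and Huwe1, encoding a ligase for it, by -0.04. The list of p53 and FoxO regulators of BH3-only genes had a median of -0.07 over the 7 genes that passed. Among them were Cdkn1a (0.53), listed as a p53 target rather than as such a regulator, E2f1 (-0.38), Foxo1 (0.27) and Ddit3 (-0.19). Cdkn1a was higher at both of its probe sets, by 0.53 and 1.02.

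Mitochondrial partners had a median of -0.03 over 9 genes, led by Bag5 (0.33), Mtch2 (-0.24), which encodes a mitochondrial receptor for Bid, Vdac3 (0.17) and Bcap31 (-0.16). Receptors for survival cytokines had a median of -0.05 over 6 genes. Csf3r, the receptor for G-CSF that sustains neutrophils, read 12.24 on the KO array and 12.54 on the WT array. Kit (-0.82), Csf2rb2 (0.21) and Csf2ra (-0.09) were the others with the largest differences in that list. In both lists 0 genes reached 2-fold.

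**Figure D4:**
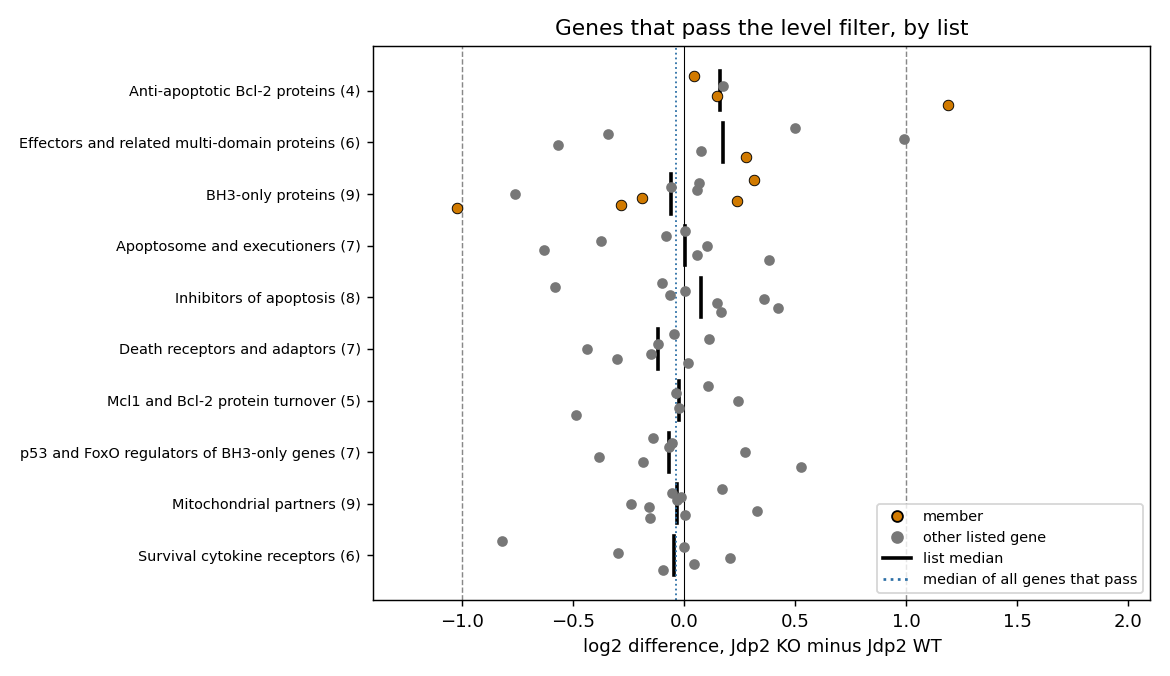
Log2 difference (Jdp2 KO minus Jdp2 WT, horizontal axis) of each gene that passes the level filter, by list (number of genes in brackets), with members in orange, other genes in grey, list medians as bars and the median of all genes that pass as a dotted line. List medians lie between -0.12 and 0.18, and outside the 2-fold lines lie only Bcl2 and Bad.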

How the data were processed

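Total RNA of 1 Jdp2 KO and 1 Jdp2 WT neutrophil sample was labelled with biotin and hybridised to 1 array each, per the labels' protocols. The deposited values are log2 probe set summaries from the RMA method, according to the submitters' processing notes, and its settings are not stated there. RMA gives no detection call, and background understates the fold of weak genes.

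Of 45037 probe sets that are no controls, 34945 carried 1 symbol, 932 listed more than 1 gene and stayed unnamed, and 9160 had no entry. Symbols were updated through Entrez identifiers (34741 matched). The brightest probe set by mean stood for a gene, which passed if the higher value reached its array's median (5.67 on the KO array, 5.65 on the WT array). With 1 array per group no test was run, and the size rule was a log2 difference of at least 1. The procedure was tested on simulated arrays. Genes named were the members, the other family genes and up to 4 per further list with the largest differences. The members and lists were chosen with earlier results of these data known. There were 9 alternatives. Python 3.11.15 and pandas 2.3.3 were used.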

Additional observations from a re-analysis of the deposited data

How the results depend on the processing

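With 1 array per genotype the number of arrays, and at weak probe sets the background, limits every value. Among member genes, the count at least 2-fold higher (1, Bcl2) was 0 with the level filter at the 75th percentile, with both values required above the array median, when probe sets were averaged and without shared probe sets. The count at least 2-fold lower (1, Bad) was 0 after quantile normalisation, after removal of a loess trend and when probe sets were averaged. By passing probe sets, the higher count of 1 was 2 with no level filter and 0 under the filter at the 75th percentile, with both values required and without shared probe sets. The lower count of 1 was 0 after quantile normalisation and after loess, and 2 with a 1.5-fold rule. The members' median of 0.15 was -0.26 with the mean of all probe sets and between 0.06 and 0.22 under the other alternatives. Averaging all probe sets also changed the sign for Bak1 (-0.25), Bcl2l1 (-0.16), Bcl2l11 (-0.26) and Mcl1 (-0.01), while Bid and Bad kept theirs. Bbc3 and Pmaip1 have 1 probe set each, so averaging could not change their sign. Bcl2 kept its sign where it passed, but it did not pass when averaged, without shared probe sets or under the stricter filters. Of 66 recomputed member differences, 63 moved by less than the pooled SD of 0.36 between probe sets. This count is no measure of stability, because a changed filter leaves the difference of a gene's brightest probe set as it was. The 3 that moved further were Bad, Bak1 and Bcl2l11, all when probe sets were averaged. Over all genes, the share at least 2-fold higher, 3.06%, was 1.75% with the filter at the 75th percentile and 8.49% with the 1.5-fold rule, and the share at least 2-fold lower, 2.33%, was 1.38% and 8.86%. The list medians of the apoptosome (0.00) and Mcl-1 turnover (-0.02) genes changed sign under 3 and 5 alternatives, the anti-apoptotic and survival receptor medians under 1 each and the effector median under 2. The cause of these changes was not tested.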

Other observations

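Some listed genes have probe sets that disagree widely, so a value taken from the brightest one describes that probe set more than the gene. Foxo1 differed by 0.27 at its brightest probe set, while its 4 probe sets ran from -1.28 to 0.32. The 7 probe sets of Mtch2 ran from -0.24 to 0.84, the 5 of Huwe1 from -0.86 to 0.20, and the 7 of Usp9x from -0.55 to 0.59. Likewise, the 2 of Kit ran from -0.82 to 0.06, the 5 of Btrc from -0.54 to 0.15 and the 4 of Cycs from -0.37 to 0.14. These genes were chosen after their values were seen.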
